A study of Mus musculus with 14 samples.

Results

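Skeletal muscle genes were followed through cultures that were set up to grow fibroblasts from mouse skin and lung. The set is 39 genes listed by name, and all 39 were found among the 48795 genes of the count table. It holds 5 satellite cell and myogenic factors, 5 embryonic, neonatal and fetal sarcomere genes, 5 slow fibre genes, 10 fast fibre genes, 7 genes of the sarcomere scaffold, its actin and its energy supply, 3 acetylcholine receptor subunits and 4 genes of calcium release and caveolae.

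RNA was sequenced from cells that had migrated out of tissue pieces over 14 days of culture without stimulation. The donors were male mice of 8 to 10 weeks, either C57BL/6J (wild type) or Rel -/- (Rel-null), in which the gene for the NF-kappaB subunit c-Rel is inactivated in every cell of the animal. The study asked how loss of Rel changes fibroblasts of lung and skin. There were 5 wild-type lung libraries (numbers 1, 23, 3, 4 and 5), 4 Rel-null lung libraries (7 to 10), 2 wild-type skin libraries (11 and 22) and 3 libraries labelled Rel-null skin (18 to 20). Skin was dorsal, was cut into smaller pieces than lung, and its pieces were taken out during culture, whereas lung pieces stayed in, so tissue and procedure cannot be told apart. Values below are counts scaled to the library total (counts per 1000000, CPM), and levels are compared between genes only per kilobase of exon.

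Several libraries stood apart before any muscle gene was considered. Rel was read at 0.0349 CPM in the library labelled Rel-null skin 18 but at 9.42 and 9.47 CPM in 19 and 20, against 11.5 and 10.9 CPM in wild-type skin, so Rel did not set those 2 libraries apart from wild type. Which part of Rel is deleted is not given in the sources used here, so reads outside it cannot be told apart from an intact gene. In lung, wild-type 4 read 1.10 CPM of Rel, below Rel-null 8 with 4.06 CPM. Genotype names below give the label of a library, not its measured Rel. Wild-type skin 22 was the shallowest library, with 2663437 counts, and the other 13 held 12780350 to 30987933. Wild-type lung 1 and wild-type skin 22 carried Xist at 64.5 and 732 CPM although the mice are described as male, and no other library exceeded 0.577 CPM. Of genes expressed in the rest of their tissue (mean of at least 5 CPM), 11.5% were at 0 in Rel-null lung number 7, 8.22% in number 11 of wild-type skin, 5.78% in number 4 of wild-type lung and 3.37% in skin 18, against at most 0.728% elsewhere. Such zeros are called gaps below. Rel-null lung 10 has 1 label that says skin, while its title and source say lung. Whether the libraries of a group stem from different animals is not stated, and the p-values therefore cover only the spread between these libraries.

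Skeletal muscle is built and repaired by a short chain of transcription factors. Pax7 marks satellite cells, the resident stem cells of muscle; Myf5 and Myod1 commit them to the lineage; Myog (myogenin) drives their differentiation and fusion, and Myf6 is prominent in the mature fibre. Newly fused fibres first make embryonic and neonatal myosins, cardiac-type actin and the gamma subunit of the acetylcholine receptor, which adult fibres replace with fast or slow isoforms and the epsilon subunit. Dorsal mouse skin carries a thin sheet of skeletal muscle, the panniculus carnosus, below the dermis, whereas lung tissue has smooth muscle but no skeletal muscle of its own.

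The myogenic factors bind E-boxes, whose letters are CANNTG, and MEF2 factors and SRF bind the MEF2 site and the CArG box. The 250 bases upstream of the start site were read from RefSeq (GRCm38.p6) for the 32 members that matched by symbol. An E-box occurred in 25 of them (78.1%), against 66.0% of all 27025 windows of that length, both strands searched. CAGCTG, which is 1 form of CANNTG, occurred in 14 (43.8%) against 12.8%. A MEF2 site occurred in 5 (15.6%) against 3.01%, a CArG box in 3 (9.38%) against 1.40%, and TATAAA in 8 (25.0%) against 13.0%. These counts describe the letters and say nothing about binding in the cultures. Of the 3 windows of factors, 1 held an E-box (33.3%) and 0 held CAGCTG. Upstream sequences of 4 members named below, which need not resemble the other windows, are shown 5′ to 3′ with every E-box in capitals. They are a factor (Myog, chr1:134289754-134290003, plus strand), the fetal receptor subunit (Chrng, chr1:87205561-87205810, plus strand), the receptor's alpha subunit (Chrna1, chr2:73580339-73580588, minus strand) and the slow inhibitory troponin (Tnni1, chr1:135799171-135799420, plus strand).
Myog: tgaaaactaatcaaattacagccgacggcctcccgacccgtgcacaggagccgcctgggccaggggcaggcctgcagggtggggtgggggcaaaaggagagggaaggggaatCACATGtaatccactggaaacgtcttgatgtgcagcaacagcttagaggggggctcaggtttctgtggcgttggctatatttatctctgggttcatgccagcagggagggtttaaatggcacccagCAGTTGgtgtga
Chrng: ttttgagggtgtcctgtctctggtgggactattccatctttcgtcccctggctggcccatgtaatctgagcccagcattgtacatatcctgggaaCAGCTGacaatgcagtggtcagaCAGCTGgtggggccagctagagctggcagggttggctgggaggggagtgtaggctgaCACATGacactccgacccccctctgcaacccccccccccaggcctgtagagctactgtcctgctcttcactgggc
Chrna1: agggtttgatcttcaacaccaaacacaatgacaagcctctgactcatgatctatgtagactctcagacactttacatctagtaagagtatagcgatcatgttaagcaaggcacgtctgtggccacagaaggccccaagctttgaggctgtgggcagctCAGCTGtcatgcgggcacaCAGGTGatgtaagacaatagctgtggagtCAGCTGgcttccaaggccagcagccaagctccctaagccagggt
Tnni1: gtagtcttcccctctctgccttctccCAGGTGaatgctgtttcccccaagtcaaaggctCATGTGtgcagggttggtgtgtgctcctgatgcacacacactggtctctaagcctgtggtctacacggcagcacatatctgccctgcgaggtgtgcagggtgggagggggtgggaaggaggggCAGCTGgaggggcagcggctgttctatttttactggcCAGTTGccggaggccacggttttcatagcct
Counted from the RefSeq start site, the E-boxes of Myog began 138 and 12 bases upstream, and neither was CAGCTG. Chrng and Chrna1 each held 3, of which 2 were CAGCTG, and Tnni1 held 4, of which 1 was CAGCTG. By the strict consensus used, none of these 4 windows matched a MEF2 site. The stretch ctatatttat in Myog missed that consensus at its last base only, so the search does not show that Myog lacks such a site.

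Muscle genes were read in skin cultures of both genotypes and were low or absent in most lung cultures. Of the 39 members, 12 had 0 counts in all 9 lung libraries. In skin, 39 members had counts in wild-type 22 and 32, 38 and 38 in the libraries labelled Rel-null 18, 19 and 20, but only 17 in wild-type 11. Every skin library exceeded every lung library for 10 members, where 2.47% of all 16408 genes tested did so. They were Myod1 and Myog, Myl4, Tnni1, the fast genes Myh1, Myl1, Mylpf and Tnnc2, Ttn and Casq2. In a culture, more muscle cells and more muscle RNA per cell cannot be told apart.

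**Figure D1:**
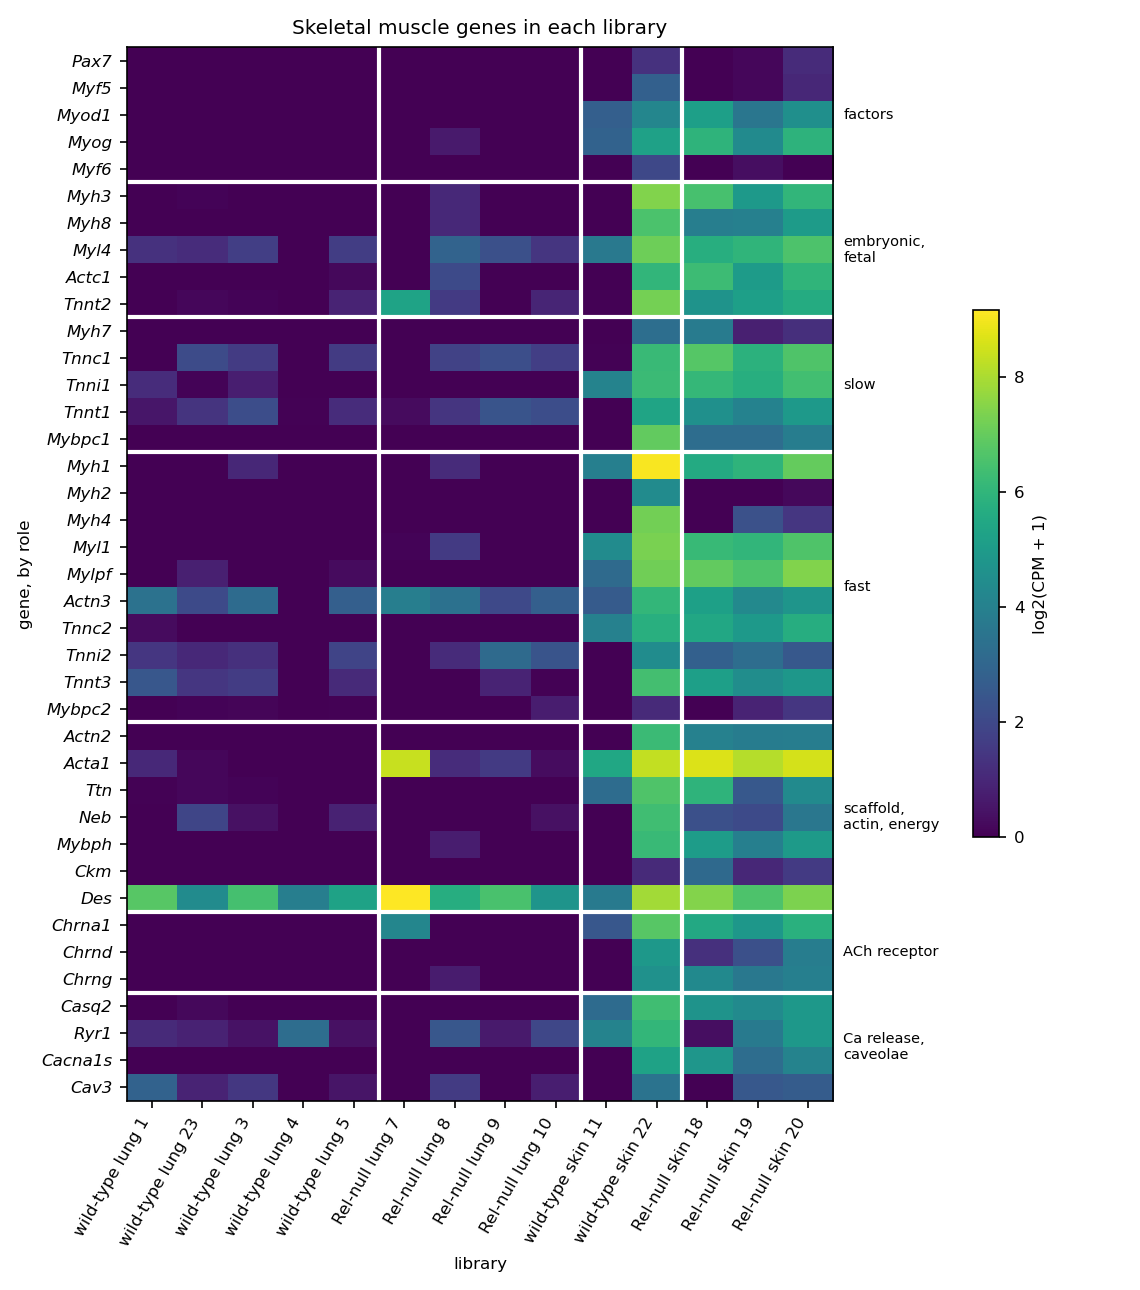
Colour gives log2(CPM + 1) of each of the 39 members (rows, grouped by role) in each of the 14 libraries (columns, grouped by tissue and genotype label). Skin libraries are bright for most members except wild-type skin 11, lung libraries are mostly dark except for Des, and Rel-null lung 7 is bright for Acta1, Des, Tnnt2 and Chrna1.

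The differentiation factors were read in every skin library and the stem cell factor hardly at all. Myod1 had 0 counts in all 9 lung libraries, where 3 counts would be 0.0149 CPM. In skin it stood at 5.81 and 17.6 CPM in wild-type 11 and 22 and at 35.0, 11.0 and 22.4 CPM in libraries 18, 19 and 20 labelled Rel-null. Myog stood at 6.46 and 36.8 CPM in wild-type skin and at 60.7, 19.7 and 59.9 CPM in skin labelled Rel-null. Among lung libraries Myog was read only in Rel-null 8, with 14 counts (0.598 CPM). Both factors thus separated the tissues without overlap. Pax7, the satellite cell marker, had 4, 2 and 15 counts in skin 22, 19 and 20 (0.127 CPM in 19 and 1.17 CPM in 20) and 0 counts in skin 11, skin 18 and all lung libraries. Myf5 followed the same libraries, with 16, 2 and 13 counts (6.01, 0.127 and 1.02 CPM). Myf6 was read only in skin 22 (8 counts, 3.00 CPM) and 19 (4 counts, 0.255 CPM), and it did not pass the filter on low counts. Per kilobase, Myog exceeded Myod1 in every skin library, by 1.38 times in skin 11 and by 2.16 to 3.33 times in the other 4.

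Genes of newly formed fibres were high in 4 of the 5 skin libraries. Myh3, the embryonic myosin heavy chain, had 0 counts in wild-type skin 11 and 170 CPM in wild-type 22, and 88.4, 29.7 and 64.1 CPM in skin 18, 19 and 20. In lung it had 1 count in wild-type 23 and 25 counts (1.07 CPM) in Rel-null 8. Wild-type skin 11 therefore lay with lung for Myh3, and the other skin libraries lay far above. Myl4, an embryonic and atrial myosin light chain, was read in skin 11 too, at 12.0 CPM, with 141 CPM in 22 and 52.3, 62.4 and 97.3 CPM in 18, 19 and 20, while lung ran from 0 to 6.62 CPM. Actc1, the cardiac-type actin of fetal muscle, had 0 counts in skin 11, 64.6 CPM in 22 and 76.2, 31.7 and 63.2 CPM in the 3 labelled Rel-null. In lung Actc1 was read only in wild-type 5 (3 counts) and Rel-null 8 (3.12 CPM). The neonatal myosin Myh8 had 0 counts in skin 11, 94.6 CPM in 22 and 14.3, 14.8 and 32.1 CPM in the others, and in lung only 25 counts in Rel-null 8. Tnnt2, the cardiac and embryonic troponin T, was at 0.0430 CPM in skin 11 and 25.0 to 149 CPM in the other 4.

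Slow fibre genes were present beside fast ones. Tnni1, the slow inhibitory troponin, stood at 16.0 and 74.3 CPM in wild-type skin and 68.1, 52.1 and 83.7 CPM in skin labelled Rel-null. In lung Tnni1 was read in wild-type 1, 23 and 3 (from 0.0529 to 1.21 CPM) and in no Rel-null library. Tnnc1, the slow and cardiac troponin C, had 1 count in skin 11 and 72.5, 108, 57.6 and 99.9 CPM in skin 22, 18, 19 and 20, against 0 to 3.56 CPM in lung. Mybpc1, the slow myosin-binding protein C, was read only in skin: 0 counts in 11, 123 CPM in 22, and 8.68, 8.79 and 13.8 CPM in 18, 19 and 20. Its level in wild-type 22 was thus far above that of every library labelled Rel-null. Tnnt1 ran from 0 to 39.8 CPM in skin and 0.0442 to 4.17 CPM in lung, and the slow myosin Myh7 from 0 to 13.1 CPM in skin with 0 counts in lung.

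Among fast fibre genes, Mylpf, the fast regulatory light chain, was the highest per kilobase (mean 102 CPM per kilobase over the 5 skin libraries). It stood at 7.92 and 143 CPM in wild-type skin and at 123, 96.8 and 173 CPM in skin labelled Rel-null. In lung Mylpf was read only in wild-type 23 (0.741 CPM) and wild-type 5 (0.190 CPM). Myl1, the fast alkali light chain, gave 20.6 and 160 CPM in wild-type skin and 71.6, 64.4 and 100.0 CPM in the others, with lung counts only in Rel-null 7 (1 count) and 8 (1.92 CPM). Tnnc2, the fast troponin C, gave 15.2, 54.4, 44.6, 29.7 and 51.0 CPM in skin 11, 22, 18, 19 and 20, and in lung only 5 counts in wild-type 1. Its exons overlap those of Ube2c on the opposite strand, and how the authors' counting treated strand is not given in the sources used here. Myh1, the fast IIX myosin, gave 14.6 and 545 CPM in wild-type skin and 47.7, 61.2 and 126 CPM in the rest, with lung counts in wild-type 3 (1.03 CPM) and Rel-null 8 (1.20 CPM) only. Myh4, the fastest IIB myosin, was read in skin 22 at 146 CPM, in 19 at 3.88 CPM and in 20 at 1.72 CPM, and had 0 counts in every other library. Myh2, the IIA myosin, did not pass the filter and had 54 counts in skin 22 and 2 in skin 20. Of the other fast genes, Tnnt3, Tnni2 and Mybpc2 had 0 counts in skin 11, and Actn3 was read in every skin library (5.21 to 66.8 CPM) and in 8 of 9 lung libraries (up to 14.1 CPM).

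The make-up of myosin heavy chains shows which kinds of fibre gene each skin culture carried. Shares were taken of the counts of Myh1, Myh2, Myh3, Myh4, Myh7 and Myh8, with exact 95% binomial intervals that cover counting error only, and reads shared between these close copies may have been misassigned. Count shares are not corrected for length and are compared for 1 gene between libraries, while shares between genes are given per kilobase. Myh1 held 55.3% (53.4 to 57.2) in wild-type 22, 55.4% (53.1 to 57.8) in 19 and 55.9% (54.1 to 57.7) in 20, but 29.2% (27.9 to 30.5) in 18. Embryonic Myh3 held 17.3% (15.9 to 18.8) in wild-type 22, 26.9% (24.8 to 29.1) in 19, 28.4% (26.8 to 30.1) in 20 and 54.1% (52.7 to 55.5) in 18. Library 18 thus had the largest share of Myh3, although its level of 88.4 CPM was below the 170 CPM of wild-type 22. Slow Myh7 held 8.02% (7.26 to 8.83) in 18 and 0.590% to 0.914% in 19, 20 and 22. Per kilobase, the shares in 18 were 58.8% Myh3, 30.2% Myh1, 6.12% Myh7 and 4.88% Myh8, and in wild-type 22 they were 57.1% Myh1, 18.7% Myh3, 16.2% Myh4 and 5.35% Myh8. Adult Myh4 held 14.8% (13.5 to 16.2) in wild-type 22, 3.52% (2.70 to 4.49) in 19 and 0.764% (0.479 to 1.15) in 20, and 0 of 4690 counts in 18 (interval up to 0.0786%). In wild-type 11 all 340 counts were Myh1. There 17 of the 34 members expressed in the other skin libraries were at 0, against 8.22% of all genes so expressed. In 18, which is also gap-rich, 3 of 33 such members were at 0, against 3.37% of all such genes. The part of gaps in the shares of 11 and 18 was not tested. These are values of single cultures, and no test of the shares between groups was made.

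**Figure D2:**
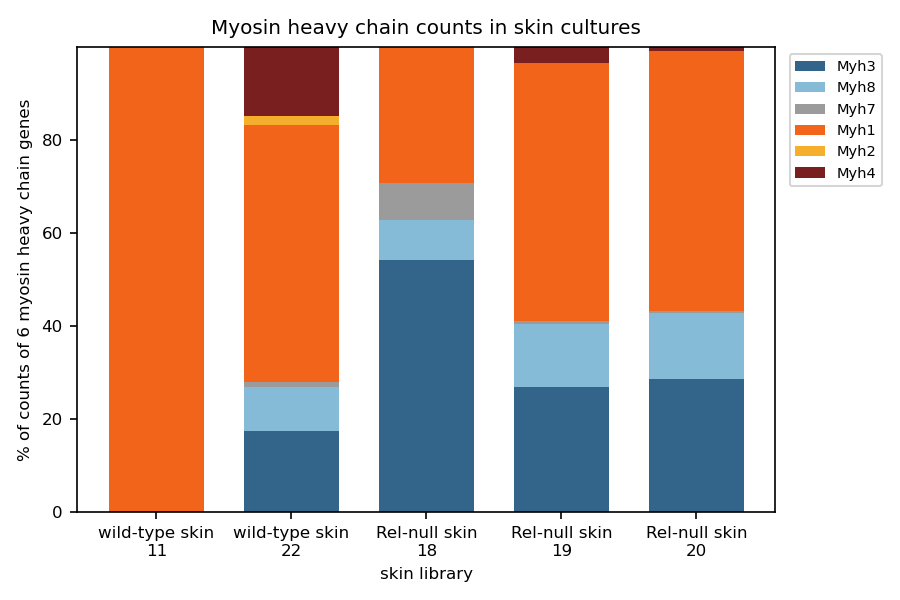
Bars give, for each of the 5 skin libraries, the percentage of the counts of 6 myosin heavy chain genes that fell on each gene, not corrected for gene length. Wild-type skin 11 holds Myh1 alone, wild-type 22 has the largest Myh4 part (14.8%), and skin 18 the largest Myh3 part (54.1%).

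Scaffold and actin genes followed the same skin libraries, with 1 lung exception. Acta1, skeletal alpha-actin, was the highest member per kilobase in skin (mean 187 CPM per kilobase). It stood at 42.8 and 323 CPM in wild-type skin and at 407, 280 and 381 CPM in skin labelled Rel-null. In wild-type lung it ran from 0 to 1.10 CPM, and in Rel-null lung it stood at 332, 1.24, 1.91 and 0.240 CPM in 7, 8, 9 and 10. Rel-null lung 7 thus lay within the range of skin. Des, the intermediate filament desmin shared by all muscle types, did not separate the tissues. It stood at 110, 20.3, 86.5, 14.3 and 38.3 CPM in wild-type lung 1, 23, 3, 4 and 5 and at 573, 51.0, 92.5 and 25.9 CPM in Rel-null lung, against 12.7 and 240 CPM in wild-type skin and 178, 96.6 and 164 CPM in skin labelled Rel-null. Ttn, the giant titin spring, gave 8.48, 99.1, 61.2, 4.71 and 19.9 CPM in skin 11, 22, 18, 19 and 20 and at most 0.106 CPM in lung. Actn2, the Z-disc alpha-actinin, had 0 counts in lung and in skin 11, and 75.5, 15.4, 13.6 and 13.8 CPM in skin 22, 18, 19 and 20. Mybph, a myosin-binding protein H, had 0 counts in skin 11, 73.2, 32.2, 14.4 and 31.1 CPM in the other 4, and in lung only 16 counts in Rel-null 8. Neb and Ckm (nebulin and the muscle creatine kinase of mature fibres) ran from 0 to 81.1 and from 0 to 7.77 CPM in skin.

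The receptor genes carried the fetal form. Chrna1, the alpha subunit, stood at 4.60 and 109 CPM in wild-type skin and at 45.1, 27.8 and 55.4 CPM in skin labelled Rel-null, and in lung only at 17.5 CPM (269 counts) in Rel-null 7. Chrng, the fetal gamma subunit, had 0 counts in skin 11, 24.0 CPM in 22 and 19.3, 11.8 and 14.7 CPM in 18, 19 and 20, and in lung only 15 counts (0.641 CPM) in Rel-null 8. Its adult replacement Chrne, which is no member, had 6 counts in skin 22 and 0 in the other 4 skin libraries. Chrnd, the delta subunit, ran from 0 to 28.9 CPM in skin and had 0 counts in lung.

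Genes of calcium release were uneven. Casq2, a calcium-binding protein of the sarcoplasmic reticulum in slow and cardiac fibres, gave 8.22 and 81.5 CPM in wild-type skin, 25.3, 19.8 and 28.6 CPM in skin labelled Rel-null, and in lung only 3 counts in wild-type 23. Cacna1s, the voltage sensor of the fibre, had 0 counts in lung and in skin 11, and 37.5, 27.2, 8.79 and 16.2 CPM in 22, 18, 19 and 20. Ryr1, the release channel it opens, overlapped between tissues. It stood at 16.0, 66.1, 0.279, 12.7 and 28.5 CPM in skin 11, 22, 18, 19 and 20, at 1.14, 0.847, 0.355, 8.57 and 0.332 CPM in wild-type lung 1, 23, 3, 4 and 5, and at 0, 4.57, 0.564 and 2.88 CPM in Rel-null lung. Cav3, the muscle caveolin, ran from 0 to 10.1 CPM in skin and 0 to 6.43 CPM in lung.

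**Figure D3:**
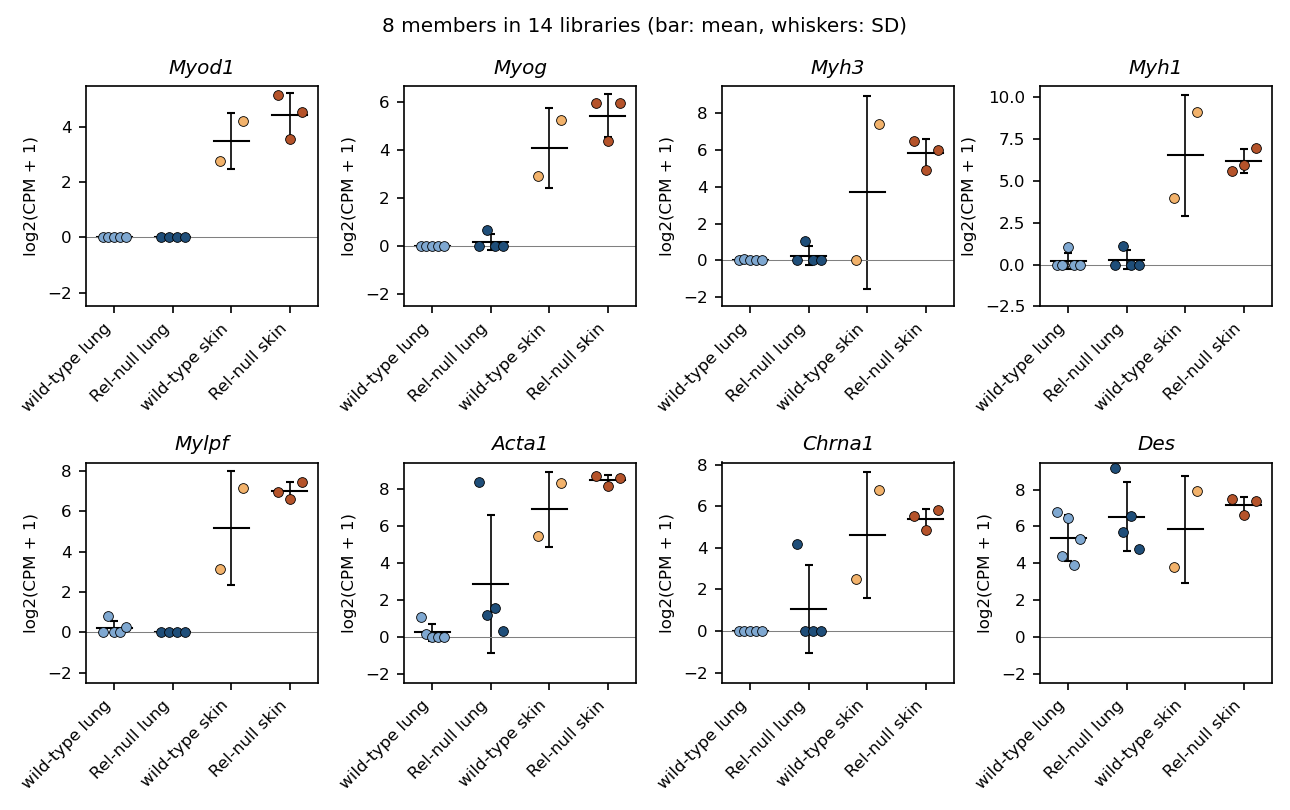
Points give log2(CPM + 1) of 8 members in each library, by group, with the group mean (bar) and SD (whiskers) on that scale. Myod1, Myog and Mylpf separate every skin library from every lung library, Rel-null lung 7 stands alone among lung libraries for Acta1 and Chrna1, and Des overlaps in all groups.

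The comparison of wild-type skin with wild-type lung asked how the tissues differ without any loss of Rel. By edgeR's quasi-likelihood test, 19 of the 37 members that passed the low-count filter were called, all higher in skin, while 148 of 16408 genes (0.902%) were called higher. A member with no counts in lung passed that filter only through skin, so the count describes the set and is no independent support. The 37 members had a median log2 fold change of 9.20, or 7.26 with the 15 members at 0 in 1 group set to their bound, against -0.13 for all genes tested. By role, the calls were 2 of 4 factors, 4 of 5 embryonic and fetal genes, 2 of 5 slow genes, 4 of 9 fast genes, 4 of 7 scaffold genes, 1 of 3 receptor subunits and 2 of 4 calcium genes. Wild-type skin lay above wild-type lung without overlap in 13 of the 37, where 10.8% of all genes did.

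Ttn rose by a log2 fold change of 9.85 (SE 1.36, adjusted p = 0.00161) and Casq2 by 10.12 (SE 1.46, adjusted p = 0.00198). Tnnc2 rose by 9.20 (SE 1.35, adjusted p = 0.00219), Mylpf by 8.49 (SE 1.28, adjusted p = 0.00267) and Myh1 by 9.89 (SE 1.67, adjusted p = 0.00307). Myh3 rose by 12.21 (SE 2.18, adjusted p = 0.00442), Tnni1 by 6.41 (SE 1.31, adjusted p = 0.0178) and Acta1 by 9.13 (SE 2.02, adjusted p = 0.0199). Myl4 rose by 5.43 (SE 1.25, adjusted p = 0.0266) and Actc1 by 9.64 (SE 2.28, adjusted p = 0.0303).

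Where wild-type lung had 0 counts the fold is a bound against 3 counts over that group. Myl1 was at least 1386-fold higher in skin (adjusted p = 0.00249), Myog at least 380-fold (0.00520) and Myod1 at least 279-fold (0.00664). These adjusted p-values and the next are from edgeR. Mybph was at least 299-fold higher (adjusted p = 0.0277), Mybpc1 503-fold (0.0286), Myh8 386-fold (0.0309), Chrna1 610-fold (0.0339), Actn2 308-fold (0.0345) and Cacna1s 153-fold (0.0466). Mybph, Mybpc1, Myh8, Actn2 and Cacna1s, like Myh3 and Actc1, had counts in wild-type skin 22 only, so each of these calls rests on 1 library. Without wild-type skin 22, 8 members were called, and Myh3 and Actc1 turned to -1.35 and -2.53. Without the 4 libraries with the most gaps 30 were called, without both Xist-positive libraries 9, and without skin 19 and 20, which enter through the shared spread, 10. The fit without the gap-rich libraries leaves skin 22 as the only wild-type skin library, and those without skin 22 or the Xist-positive libraries leave skin 11, each assumed to vary like the libraries of the other groups. Leaving out wild-type lung 23, 3, 4 or 5 alone left 10, 10, 11 and 11 calls. Casq2, Myl1, Mylpf, Myog, Tnnc2 and Ttn were called in each of the 17 alternative fits of this comparison.

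The same comparison within the Rel-null label gave 12 called members, all higher in skin, against 299 of 16408 genes (1.82%) called higher. All 12 were among the 19 of wild type, of which they make 63.2%. Their roles were 2 of 4 factors, 1 of 5 embryonic and fetal genes, 1 of 5 slow genes, 4 of 9 fast genes, 2 of 7 scaffold genes, 0 of 3 receptor subunits and 2 of 4 calcium genes. The median log2 fold change of the 37 was 6.75, or 6.33 with bounds for 15 members, against -0.01 for all genes. Skin lay above lung without overlap in 27 of the 37, where 13.3% of all genes did.

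Against 0 counts in Rel-null lung, Mylpf was at least 3497-fold higher in skin (adjusted p = 0.000659, edgeR), Tnni1 at least 1851-fold (0.00169) and Tnnc2 at least 1150-fold (0.000951). Ttn was at least 787-fold higher (adjusted p = 0.00112, edgeR), Casq2 675-fold (0.00164), Myod1 628-fold (0.00530), Cacna1s 479-fold (0.0484) and Actn2 392-fold (0.0489). Genes with some lung counts rose by less on the log2 scale: Myh1 by 7.77 (SE 1.69, adjusted p = 0.0118), Myog by 8.02 (SE 1.65, adjusted p = 0.0145), Myl1 by 7.09 (SE 1.47, adjusted p = 0.0156) and Myh3 by 7.59 (SE 1.86, adjusted p = 0.0246). Acta1, with its high level in Rel-null lung 7, had a log2 fold change of 2.11 (SE 1.59, adjusted p = 0.555). Without the 4 gap-rich libraries, which include lung 7 and skin 18, 28 members were called. Without skin 19 and 20, whose Rel was near the wild-type level, 6 were called. That fit leaves the gap-rich skin 18 as the only Rel-null skin library, assumed to vary like the other groups. Without skin 20 alone 7 were called. Casq2, Mylpf, Myod1, Tnnc2, Tnni1 and Ttn were called in each of the 17 alternative fits.

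**Figure D4:**
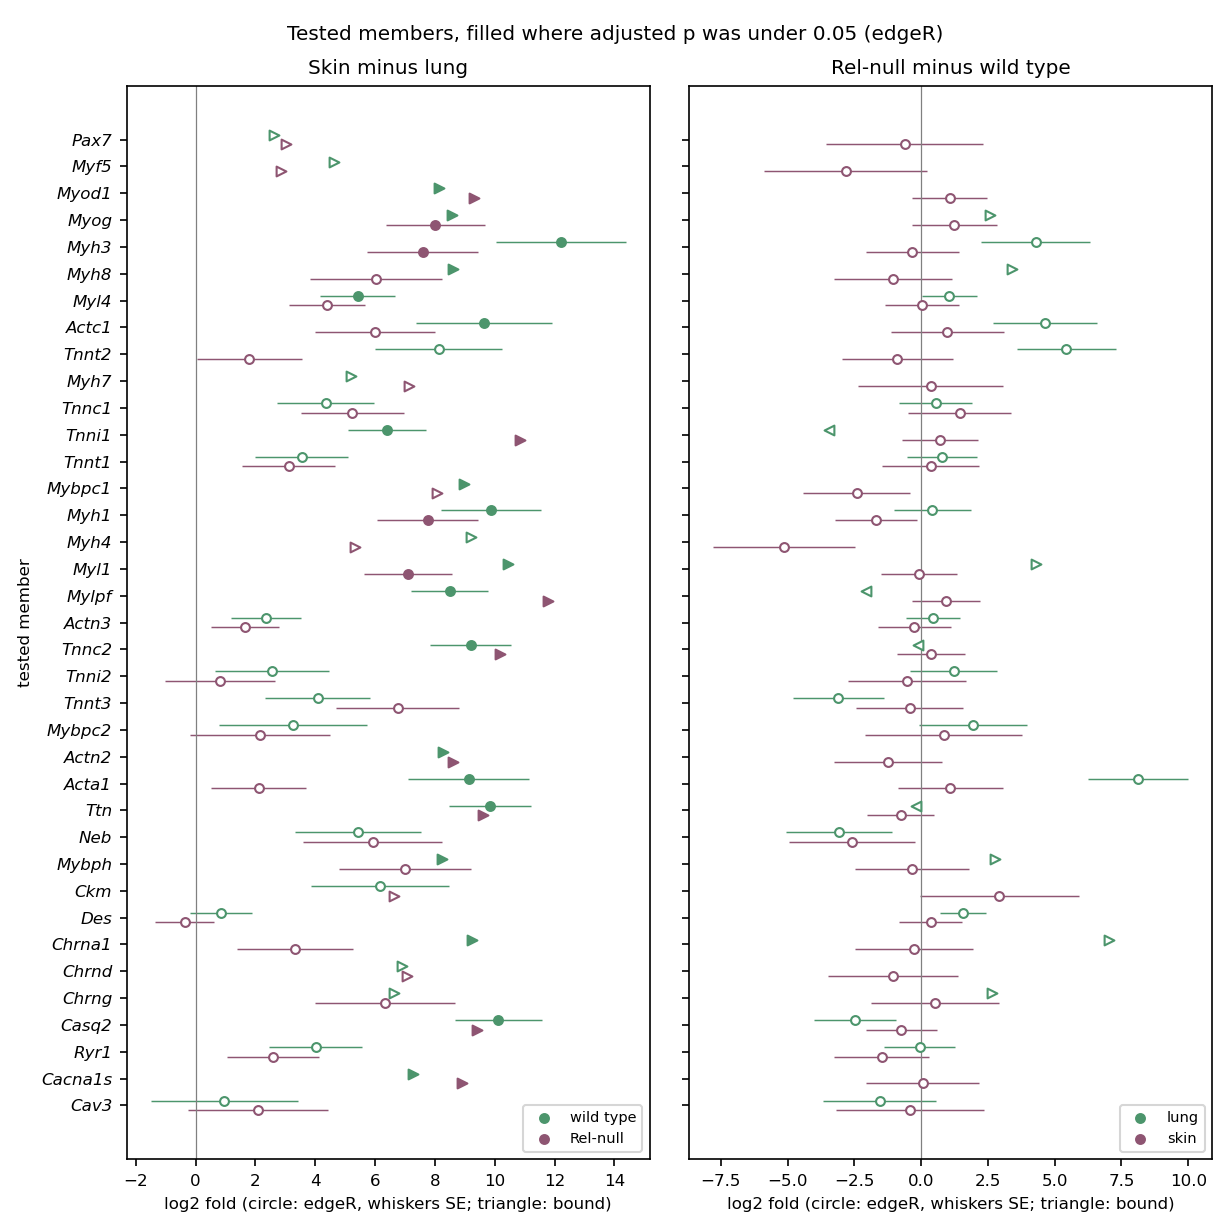
Log2 fold of the 37 tested members for skin minus lung (left) and Rel-null minus wild type (right), with 2 comparisons per panel in colour. Circles are edgeR values with their SE, triangles are bounds where 1 group had 0 counts, filled symbols passed the adjusted threshold, and members at 0 in both groups are not drawn. Filled symbols appear only on the left: 19 for wild type and 12 for Rel-null.

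Comparing genotypes, no member was called in either tissue. In skin edgeR called 0 of 37 members and 0 of 16408 genes (0%), 0 members had an unadjusted p under 0.05 (1024 genes did), and the members' median log2 fold change was -0.27 against 0.01 for all genes. No member was higher in all libraries labelled Rel-null than in both wild-type skin libraries (13.7% of all genes were) and none was lower in all of them (11.5% were). The wild-type pair bracketed the others for most members: 22 lay above all 3 for 29 members and 11 lay below all 3 for 30. The share of all genes that did so was not taken. Skin 22 is the shallowest library and skin 11 is gap-rich, so the bracketing cannot be called particular to muscle genes. The smallest p-values belonged to Myh4, with -5.13 (SE 2.67, adjusted p = 0.784), Mybpc1 with -2.41 (SE 2.01, adjusted p = 0.884) and Myh1 with -1.70 (SE 1.53, adjusted p = 0.894). Their intervals from the SE, -10.35 to 0.10, -6.34 to 1.52 and -4.70 to 1.31, leave room for large differences either way in Mybpc1 and Myh1. DESeq2 called 0 members (153 genes) and limma-voom with quality weights called 13, all higher in skin labelled Rel-null, among 300 genes called in either direction. In that fit Myh4, Mybpc1 and Myh1 turned to 4.17, 6.68 and 0.18, and without wild-type skin 22 they turned to 8.24, 10.71 and 2.35. Without the 4 gap-rich libraries, which leaves 22 against 19 and 20, 1 member was called, Myh4 at -5.46 (adjusted p = 0.0326, edgeR), among 87 genes. Skin 22, the shallowest library and 1 of those with Xist, is then alone in its group, and its spread is assumed from the other groups. The direction of Myh4 thus depends on which libraries are kept.

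Markers of other cells also differed between the libraries, not all in the order of the muscle genes, and their part in the result was not tested. The 10 keratinocyte markers summed to 41.4 and 27.4 CPM in wild-type skin and 958 to 2439 CPM in skin labelled Rel-null, against 3.25 to 15.3 CPM in lung. The 6 Schwann cell markers summed to 404 CPM in wild-type 22, the library with the most muscle RNA, and to 24.9 to 61.7 CPM in the other 4, against 0 to 6.68 CPM in lung. The 6 adipocyte markers summed to 2345 and 471 CPM in wild-type 11 and 22 and 97.7 to 343 CPM in skin labelled Rel-null, against 235 to 1316 CPM in lung. Of these 6, Adipoq and Plin1 stood at 37.5 and 131 CPM in wild-type 11 and at most 0.375 CPM elsewhere. Cidec, another of them, went the other way, with 0 counts in every skin library and counts in wild-type lung. The 10 cardiac markers summed to at most 10.0 CPM in any library, with Myh6 and Nppa at 0 in all 14. That highest sum was in Rel-null lung 7 and came from Nppb alone (154 counts), which had 0 counts in wild-type lung. The 10 leukocyte markers summed to 4413 to 23153 CPM in lung and 33.8 to 163 CPM in skin.

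In lung edgeR called 0 of 37 members and 0 of 16408 genes (0%), and 11 members had an unadjusted p under 0.05, as did 1036 genes (6.31%). The members' median log2 fold change was 0, with 10 at 0 counts in both groups, against -0.08 for all genes. In Rel-null lung 18 members were higher and 9 lower. Among the lower ones, Tnni1, with 0 counts in Rel-null lung, was at least 10.9-fold higher in wild-type lung. The 3 smallest p-values were those of Acta1, at 8.11 (SE 1.88, adjusted p = 0.781), and of Chrna1 and Myl1, which had 0 counts in wild-type lung and were at least 129-fold and 19.7-fold higher in Rel-null lung (both adjusted p = 0.781). Acta1 and Chrna1 rest on library 7 and Myl1 on library 8. DESeq2 called 5 members in lung, among 51 genes: Chrna1, Acta1, Chrng, Mybph and Myh8. limma-voom called 0, and edgeR without the low-count filter called Acta1 (adjusted p = 0.00808). The difference between the genotype effects of skin and lung was called for 0 members and 0 genes (0%), with 6 members and 766 genes at an unadjusted p under 0.05.

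The high Rel-null lung values of Acta1, Chrna1, Myl1, Chrng, Mybph and Myh8 came from 2 libraries with unlike patterns. Rel-null lung 7 carried Acta1 at 332 CPM, Des at 573 CPM, Tnnt2 at 39.2 CPM, Chrna1 at 17.5 CPM and Actn3 at 14.1 CPM. The other 34 members, a set chosen after these values were seen, summed to 0.260 CPM (4 counts) there, with 0 counts of every myogenic factor and of Myh3, Myh1 and Mylpf. Its 8 smooth muscle markers summed to 11895 CPM, against 918 to 3248 CPM in the other lung libraries and 1460 to 2487 CPM in skin. Among these, Acta2, smooth muscle alpha-actin, stood at 6292 CPM and Tagln (transgelin) at 3423 CPM. Lung 7 is also the library with the most gaps, and the part of either in the result was not tested. Rel-null lung 8 showed low counts of many members instead. It had at least 10 counts of 18 members, the most of any lung library (2 to 12 in the others). Of all genes, 13495 had at least 10 counts there, against 9826 to 14553 in the other lung libraries. The 18 members included Myog, Myh3, Myh8, Actc1, Myl1, Mybph and Chrng at 0.598 to 3.12 CPM. The smooth muscle markers of lung 8 summed to 918 CPM, the lowest of all 14 libraries.

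Other genes of the muscle programme followed the members in part. Of 17 genes of myoblast fusion and satellite cells, edgeR called 2 in skin against lung in each genotype, both higher: Itga7 and Cdh15. Over all genes tested, 0.902% were called higher in wild type and 1.82% in Rel-null. Itga7, the laminin-binding integrin of muscle, stood at 71.4 and 256 CPM in wild-type skin, 37.6 to 92.2 CPM in skin labelled Rel-null and 3.42 to 19.5 CPM in lung. It rose by 3.87 (SE 0.70, adjusted p = 0.00508) in wild type and 2.55 (SE 0.69, adjusted p = 0.0436) in Rel-null. Mef2c, a partner of the myogenic factors that other cells also make, gave 10.1 and 122 CPM in wild-type skin, 17.9 to 21.7 CPM in skin labelled Rel-null and 0.716 to 24.6 CPM in lung. Of 40 mature fibre genes 36 were tested, and 1 was called in wild type and 4 in Rel-null, all higher in skin. Their median log2 fold changes were 7.16 and 7.11, or 5.52 and 4.93 with the 11 and 22 genes at 0 in 1 group set to their bound, against -0.13 and -0.01 for all genes. Eno3, the muscle enolase, overlapped between tissues, at 15.4 to 104 CPM in skin and 10.8 to 41.6 CPM in lung apart from 270 CPM in Rel-null lung 7. Tmem38a, a potassium channel of the sarcoplasmic reticulum, did so too, at 20.7 to 33.5 CPM in skin and 12.7 to 45.5 CPM in lung.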

How the data were processed

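The authors deposited raw counts per Ensembl gene for 14 libraries made with a directional kit, per the labels' protocols. Per the submitters' processing notes, STAR 2.4.2a, Trimmomatic 0.33 and FastQC 0.11.2 were used with GRCm38. How reads were assigned to genes, by strand or not, and from which annotation is not given in the sources used here. Symbols, exon lengths and overlaps came from GENCODE M21. Exons of 14 members overlap another gene on the opposite strand.

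Members and lists were chosen with earlier results of these data known. Counts were fitted with edgeR 4.0.16 (R 4.3.3): TMM factors, filterByExpr (minimum count 10, total 15), 4 group means over all 14 libraries, quasi-likelihood F tests and Benjamini-Hochberg adjustment over 16408 genes at 0.05. The common dispersion was 0.948. CPM uses raw totals, and SE is the log2 fold change over the root of F. Named genes were the 5 factors, the 2 highest members of each other role, and in each comparison the called members or the 3 with the smallest p. A fold against a group at 0 is a bound from 3 counts over that group. Alternatives included DESeq2 1.42.0 and limma 3.58.1. The fit was also run on simulated counts, with a spread far smaller than the dispersion here and no gap-rich libraries. That run therefore does not show how the fit behaves on these data. The binomial intervals and the bounds cover counting error only, while intervals from the SE include the spread between libraries.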

Additional observations from a re-analysis of the deposited data

Results flagged for a closer look

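A lung library far from the rest of its group was found in 13 of the 20 groups of lung values examined for the named members. Groups with the same value in every library were left out. The rule sets apart about 1 in 20 groups only where values spread normally, which these do not. Most of these groups are at or near 0 in every other library, so a handful of counts is enough. A group with counts in only 1 library is always set apart, so the 13 cannot be set against chance. Rel-null lung 7 stood apart for Acta1 (332 CPM), Des (573 CPM) and Chrna1 (17.5 CPM). Rel-null lung 8 stood apart for Myog (0.598 CPM), Myh3 (1.07 CPM), Myh1 (1.20 CPM) and Chrng (0.641 CPM). In wild-type lung, number 23 stood apart for Myh3 (0.0529 CPM, 1 count), Mylpf (0.741 CPM) and Casq2 (0.159 CPM), number 3 for Myh1 (1.03 CPM), number 1 for Acta1 (1.10 CPM) and number 4 for Ryr1 (8.57 CPM). The skin groups, with 2 and 3 libraries, are too small for this check.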

How the results depend on the processing

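No paired analysis was possible because the groups share no replicate numbers. For skin against lung, the report names 6 members of each genotype that were called in every fit. They were picked for this, so their stability follows from the choice. Every other called member lost the call in some fit. Actc1 and Cacna1s, for example, were called in 7 of 18 wild-type fits, the main one included. Counts of called members and genes moved as well, and except where fewer libraries or genes entered by construction the cause was not tested.

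Members called in lung between genotypes (0) were 1 without the low-count filter and 5 by DESeq2, and in skin (0) 13 by limma-voom and 1 without the 4 gap-rich libraries. For wild-type skin against lung (19 members) limma-voom called 11 and a fit of only those groups 10. The added fits gave 30 without the 4 gap-rich libraries, 9 without the Xist-positive libraries and 10 without skin 19 and 20. For Rel-null skin against lung (12 members) there were 21 without the filter, 27 by limma-voom, 28 without the gap-rich libraries and 6 without skin 19 and 20. Leaving out 1 library at a time gave 8 to 23 members for wild type and 7 to 14 for Rel-null, and 0 between genotypes in either tissue. Where an alternative leaves 1 skin library in a group, that library is assumed to vary like the other groups.

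Over all genes, lung genotype calls (0) were 5 without the filter, 51 by DESeq2, 6 by limma-voom, 2 with only those groups, 6 without the gap-rich libraries and 2 without skin 19 and 20. Skin genotype calls (0) were 3 with upper-quartile factors and 58, 153, 300 and 2 by those first 4 alternatives. They were 87 without the gap-rich libraries, 439 without the Xist-positive ones and 55 without skin 19 and 20, and 0 to 421 with 1 library left out. Wild-type skin against lung (487) gave 782 without the filter, 1233 by DESeq2, 858 without the gap-rich and 1044 without the Xist-positive libraries, and 258 to 1050 with 1 library left out. Rel-null skin against lung (829) gave 1770 by DESeq2, 4501 by limma-voom, 2171 without the gap-rich libraries and 409 without skin 19 and 20, and 410 to 1323 with 1 left out. The difference of genotype effects (0) gave 31 without the filter, 100 by DESeq2, 174 by limma-voom, 31 without the gap-rich libraries, 365 without the Xist-positive ones and 31 without skin 19 and 20, and 0 to 370 with 1 left out.

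Reversals were looked for only in the named genes of each comparison, and there they were limited to 5 values. The other members were not checked for them. In skin between genotypes, Myh4, Mybpc1 and Myh1 turned to 4.17, 6.68 and 0.18 by limma-voom, to 8.24, 10.71 and 2.35 without wild-type skin 22, and to 8.27, 10.73 and 2.39 without the Xist-positive libraries, which include 22. With 1 library left out they ranged from -6.31 to 8.24, -3.36 to 10.71 and -2.60 to 2.35. Between wild-type tissues, Myh3 and Actc1 turned to -1.35 and -2.53 without skin 22 and to -1.54 and -2.79 without the Xist-positive libraries. Depth limits wild-type skin 22 most, where 1 count is worth the most CPM, and gaps limit skin 11, so 2 wild-type skin libraries set the precision of every comparison that uses them.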
